A study of Mus musculus with 6 samples.

Results

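Chd8, Shank3, Adnp, Arid1b, Dyrk1a, Nlgn3, Pogz and Ash1l are genes in which damaging mutations are strongly tied to autism in humans, and they were followed here in the cerebellum of mice that carried 1 disrupted copy of another autism-linked gene, Reln. The 8 genes were picked by symbol, not by a cut on measured values, from the 24537 genes listed for every library. Earlier results of these data were known when they were chosen. RNA was sequenced from the whole cerebellum of male mice 6 weeks after birth, in 3 libraries labelled HET and 3 labelled WT. HET mice had 1 null copy of Reln and are given as strain Orl/BalbC, and WT mice were wild type and are given as strain C57BL/6. Genotype and labelled strain therefore cannot be told apart in any difference reported here. The labels number the samples of a group but do not say that each came from a separate animal, so the p-values measure only the spread between these libraries.

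The proteins of these genes work at opposite ends of a neuron. Chd8, Adnp, Arid1b, Pogz and Ash1l act on chromatin in the nucleus: Chd8 is an ATP-driven nucleosome remodeller, Arid1b is a DNA-binding subunit of the BAF (SWI/SNF) remodelling complex, Adnp and Pogz are zinc finger proteins that bind the heterochromatin protein HP1, and Ash1l methylates lysine 36 of histone H3. Dyrk1a is a dosage-sensitive protein kinase encoded in the human Down syndrome region. Shank3 is a scaffold under the postsynaptic membrane of excitatory synapses, and Nlgn3 is a neuroligin, a postsynaptic adhesion protein that binds presynaptic neurexins. Reln encodes reelin, a secreted glycoprotein that granule cells make in the adult cerebellum.

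The 6 libraries held from 22835000 to 28550000 reads, as read from the steps between low values. Reln, the gene disrupted in the HET mice, had 6121, 6326 and 6097 reads in HET libraries, against 10878, 9508 and 12353 reads in WT libraries, and its mean FPKM (fragments scaled by gene length and library depth) in HET was 0.636 times that in WT. Its groups did not overlap, and the two-sided exact permutation test gave p = 0.1, the smallest value that 3 libraries against 3 allow. All 11 granule cell and 10 Purkinje cell markers were above 0 in every library. So were 4 of 5 forebrain neuron markers, so presence alone does not tell the tissue. The forebrain markers summed to 91.1 to 93.8 scaled RPM (explained below) in HET and 87.2 to 104.3 in WT. Granule cell markers summed to 4548 to 5648 in HET and 4958 to 5713 in WT. Gabra6, a granule cell marker, had 62.0 FPKM in HET and 60.0 FPKM in WT. Choroid plexus markers, led by Ttr, varied widely between libraries of both groups, with a summed level of 36.4, 1311 and 67.1 scaled RPM in HET, against 2382, 10.5 and 1429 in WT.

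2 properties of the deposited values decided how the autism risk genes could be read. The first concerns the length by which each value was divided. The labels describe FPKM as scaled by exon length, but the low values of multi-exon genes fell on whole reads only when multiplied by the gene's full genomic span, introns included. In 2898 genes with 1 annotated transcript and a span above 2 times their exon length, 85.2% of 3299 values worth at most 10 reads lay within 0.1 of a whole read by span. By exon length the figure was 19.6% of 2666 values, where evenly spread fractions give 20%. Both figures used the depth that best fitted the values of these genes by span, which favours the span figure. Depths fitted on single-exon genes, where the 2 lengths coincide, were 22790000 to 28515000 reads, against 22835000 to 28550000. Whether reads in introns were also counted is not known. Each value was therefore also expressed as RPM, the FPKM multiplied by the span in kilobases, which scales reads by library depth alone. The choice matters for long genes: Arid1b spans 353.3 kb and has exons of 12.6 kb, and its mean of 0.265 FPKM stood for 2174 to 3036 reads a library.

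**Figure D1:**
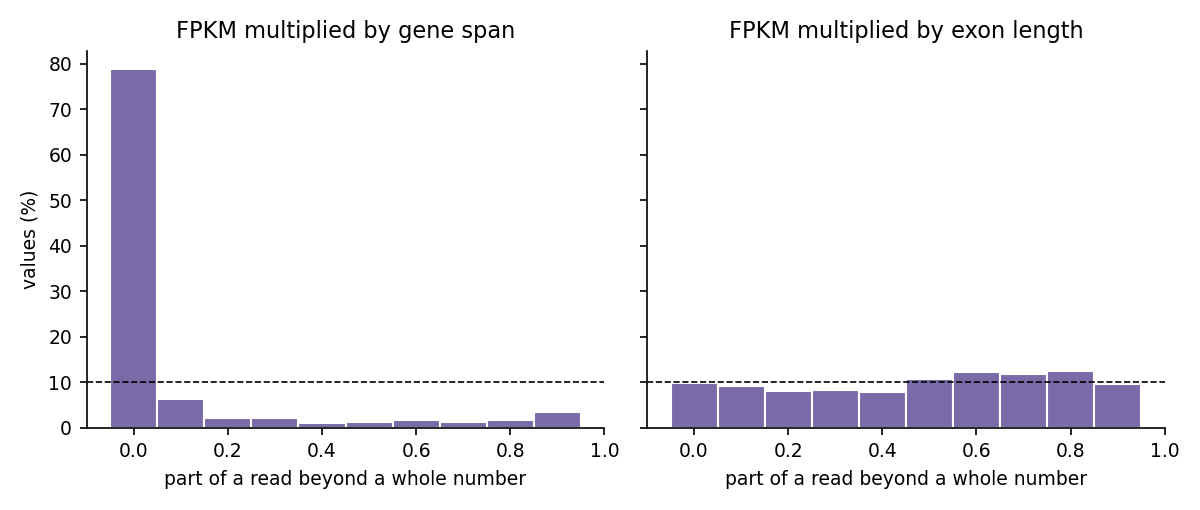
Share of low values (percent, vertical axes starting at 0) by the part of a read left beyond a whole number (horizontal axes, in reads), after multiplying FPKM by the gene's span (left) or by its exon length (right); the dashed line is the 10% that even fractions would give in each bar. By span 78.9% of values fall in the bar around 0, against 9.75% by exon length.

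The second property concerns mainly Adnp. Among the other members only Chd8 overlaps a same-strand gene with a row of its own, Snord8. How reads were divided there is not stated. The row of Adnp held only 23, 12 and 53 reads in HET libraries, against 39, 30 and 41 in WT libraries. Its counting error was 13.7% to 28.9%. On the same strand the annotation (GENCODE M21, GRCm38) has Gm20716, a transcript that runs through from Dpm1 into Adnp, at chr2:168180986-168230364. Its exons hold 4393 of the 5350 exon bases of Adnp, or 82.1%, and all 3324 of its coding bases. Gm20716 had a row of its own with 1717, 2072 and 1749 reads in HET libraries, against 2062, 1698 and 2488 reads in WT libraries. The row of Adnp made up 0.575% to 2.94% of the reads of both rows. How the authors' counting divided reads between them is not stated, so the Adnp row is not taken as the level of Adnp, and Gm20716 is given beside it with the same reservation. One coding exon that both annotations contain is shown in capitals because a read inside it belongs equally to either; it lies at chr2:168187567-168187659 on the minus strand (GRCm38, GENCODE M21 transcript sequence).

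Adnp coding exon: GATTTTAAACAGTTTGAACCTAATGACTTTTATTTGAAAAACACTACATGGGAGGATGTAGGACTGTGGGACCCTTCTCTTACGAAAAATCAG

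The start regions of 4 members are shown to make the loci concrete: 3 chromatin regulators, and Shank3, which stood apart in the scaled values described later. RefSeq (GRCm38.p6) lists such regions for 6 of the 8 genes. Each runs 5′ to 3′ in the direction of the gene; capitals mark matches on either strand to an ETS core (CGGAAG), a CRE core (TGACGT), a YY1 core (CCATNTT) or a GC box (GGGCGG). The regions lie at chr14:52257711-52258010 on the minus strand for Chd8, chr2:168207063-168207362 on the minus strand for Adnp, chr3:94837187-94837486 on the plus strand for Pogz and chr15:89499358-89499657 on the plus strand for Shank3.

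Chd8: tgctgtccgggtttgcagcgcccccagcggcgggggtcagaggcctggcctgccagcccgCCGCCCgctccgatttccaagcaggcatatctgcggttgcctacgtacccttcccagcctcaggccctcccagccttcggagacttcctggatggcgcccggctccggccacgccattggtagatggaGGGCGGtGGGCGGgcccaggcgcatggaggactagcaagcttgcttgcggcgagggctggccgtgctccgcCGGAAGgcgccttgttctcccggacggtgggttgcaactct
Adnp: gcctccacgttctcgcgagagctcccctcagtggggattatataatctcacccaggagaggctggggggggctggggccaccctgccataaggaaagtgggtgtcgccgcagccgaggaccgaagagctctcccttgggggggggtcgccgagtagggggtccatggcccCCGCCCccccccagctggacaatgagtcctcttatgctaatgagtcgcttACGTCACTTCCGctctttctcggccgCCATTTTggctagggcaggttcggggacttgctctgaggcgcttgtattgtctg
Pogz: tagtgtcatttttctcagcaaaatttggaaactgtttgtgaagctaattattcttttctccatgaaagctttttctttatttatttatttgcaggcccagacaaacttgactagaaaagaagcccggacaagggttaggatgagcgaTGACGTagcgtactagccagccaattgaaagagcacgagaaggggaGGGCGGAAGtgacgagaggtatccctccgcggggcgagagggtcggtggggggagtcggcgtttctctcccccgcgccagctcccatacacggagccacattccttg
Shank3: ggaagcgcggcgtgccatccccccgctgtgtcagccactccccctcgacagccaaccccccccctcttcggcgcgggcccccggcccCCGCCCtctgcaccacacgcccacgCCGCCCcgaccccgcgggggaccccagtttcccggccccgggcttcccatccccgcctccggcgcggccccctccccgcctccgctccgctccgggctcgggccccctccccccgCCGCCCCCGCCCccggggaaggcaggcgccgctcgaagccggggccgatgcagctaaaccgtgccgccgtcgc

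Adnp and Pogz each held 1 ETS core, 1 CRE core and 1 GC box; in Pogz the ETS core overlaps a GC box, and in Adnp it directly follows the CRE core, with 1 YY1 core downstream. Chd8 held 1 ETS core and 3 GC boxes, and Shank3 held 4 GC boxes and none of the other motifs. Among 32851 mouse promoter regions of the same table, 16.9% held an ETS core, 7.51% a CRE core, 16.1% a YY1 core and 35.7% a GC box. Shank3 had 40 CG dinucleotides, more than 96.1% of these regions, where the median is 7; Chd8 had 26, Adnp 17 and Pogz 16. A match describes these letters only, and nothing in these RNA data bears on binding there.

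The 7 members other than Adnp were well covered, and their levels were moderate. Per kilobase of exon, Shank3 had the highest mean over the 6 libraries, 15.7 RPM per kb, with a range of 13.6 to 17.8. Dyrk1a followed at 13.9 (12.1 to 15.0) and Ash1l at 12.8 (11.3 to 15.1), and the ranges of these 3 genes overlapped. Nlgn3 had 10.3 (8.37 to 11.7), Chd8 8.13 (7.66 to 8.81) and Arid1b 7.43 (6.49 to 8.44), each overlapping its neighbour in that order. Pogz was the lowest at 3.84, and its range of 3.48 to 4.33 did not reach that of Arid1b. Per kilobase of span, as deposited, the order was Nlgn3 (3.55 FPKM), Shank3 (2.38), Chd8 (2.25), Ash1l (1.47), Dyrk1a (0.917), Pogz (0.791), Arid1b (0.265) and Adnp (0.0485), so Dyrk1a moved between the upper and the lower part of the list with the length used. The order per kilobase of exon holds only if the reads were exonic, which is not known, and the span was 15.2 times the exon length for Dyrk1a and 6.6 times for Shank3. Exon lengths here join all annotated transcripts of a gene, and which of them the cerebellum uses was not measured.

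Among close relatives of the members, the levels differed by family, under the same reservation on exonic reads. Per kilobase of exon, Shank2 (22.5 RPM per kb) lay above Shank3, and Shank1 (4.93) below it. Nlgn2, the neuroligin of inhibitory synapses, had 22.2 on the same scale and Nlgn1, that of excitatory synapses, 4.55, on either side of Nlgn3. Chd4 (24.9), Chd7 (19.4) and Chd3 (15.6) were above Chd8, while Chd2 (6.57), Chd6 (6.50), Chd9 (5.44), Chd1 (4.88) and Chd5 (1.94) were below it. Arid1a, the alternative to Arid1b in the BAF complex, had 5.63, and Adnp2 had 4.38. Dyrk1a was well above its relatives Dyrk1b (4.23), Dyrk3 (1.62), Dyrk2 (0.919) and Dyrk4 (0.0151), the last with at most 2 reads in any library.

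None of the 8 genes passed the test of HET against WT on the deposited values. limma on log2(FPKM + 1) over the 6358 genes that averaged 1 FPKM or more called 5 genes at an adjusted p under 0.05, which is 0.0786% of those tested, and 212 (3.33%) at an unadjusted p under 0.05; 83.1% of the genes were higher in HET and 16.9% lower. The 5 genes, named after their values were seen, were Chac1, higher in HET, and Gm3219, Snora31, Snord15a and Zfhx2os, lower in HET. Chd8, Shank3, Nlgn3 and Ash1l were among the genes tested, with adjusted p from 0.928 to 0.989. Arid1b, Dyrk1a, Pogz and Adnp lay under 1 FPKM although the first 3 of them had at least 798 reads in every library, and they were read from the fit with no filter, where their adjusted p was 1.0. In FPKM the groups overlapped for all 8 genes; over all genes tested, 4.81% had every HET library above every WT library and 0.739% the reverse.

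Chd8 (chr14:52198151-52257780, minus strand) had 2.22, 2.44 and 2.16 FPKM in HET libraries, against 2.20, 2.12 and 2.36 FPKM in WT libraries. HET replicate 2 was the highest and WT replicate 2 the lowest, and the values interleaved. On log2(FPKM + 1) the difference, HET minus WT, was 0.02 (SE 0.11, 95% interval -0.21 to 0.25, limma adjusted p = 0.963). Arid1b (chr17:4994332-5347656, plus strand) had 0.246, 0.272 and 0.275 FPKM in HET libraries, against 0.266, 0.231 and 0.301 FPKM in WT libraries. Its HET values lay inside the range of the WT values. Ash1l (chr3:88950622-89079375, plus strand), whose span also overlaps Dap3 on the other strand, had 1.34, 1.47 and 1.54 FPKM in HET libraries, against 1.42, 1.30 and 1.74 FPKM in WT libraries. Here too the WT libraries held both ends of the range, and the difference on log2(FPKM + 1) was -0.02 (SE 0.10, 95% interval -0.22 to 0.18). Pogz (chr3:94837567-94882326, plus strand) had 0.739, 0.870 and 0.781 FPKM in HET libraries, against 0.749, 0.716 and 0.892 FPKM in WT libraries. Adnp (chr2:168180986-168207112, minus strand) was listed at 0.0345, 0.0170 and 0.0887 FPKM in HET libraries, against 0.0523, 0.0435 and 0.0550 FPKM in WT libraries. The HET values of Adnp enclosed the WT values, and its exact permutation test gave p = 0.9.

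Dyrk1a (chr16:94570010-94695517, plus strand) had 0.903, 0.986 and 0.885 FPKM in HET libraries, against 0.981, 0.796 and 0.948 FPKM in WT libraries. The mean in HET was 1.02 times that in WT, and the exact permutation test gave p = 0.8. Shank3 (chr15:89499623-89560261, plus strand) had 2.09, 2.48 and 2.37 FPKM in HET libraries, against 2.70, 2.07 and 2.54 FPKM in WT libraries. 2 WT libraries were above every HET library and WT replicate 2 was below all of them; the difference on log2(FPKM + 1) was -0.05 (SE 0.12, 95% interval -0.28 to 0.19, limma adjusted p = 0.928). Nlgn3 (chrX:101299168-101325963, plus strand) had 3.29, 3.79 and 3.51 FPKM in HET libraries, against 4.03, 2.90 and 3.79 FPKM in WT libraries. Its WT libraries again held the highest and the lowest value, with a difference of -0.01 (SE 0.13, 95% interval -0.26 to 0.25, limma adjusted p = 0.989).

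**Figure D2:**
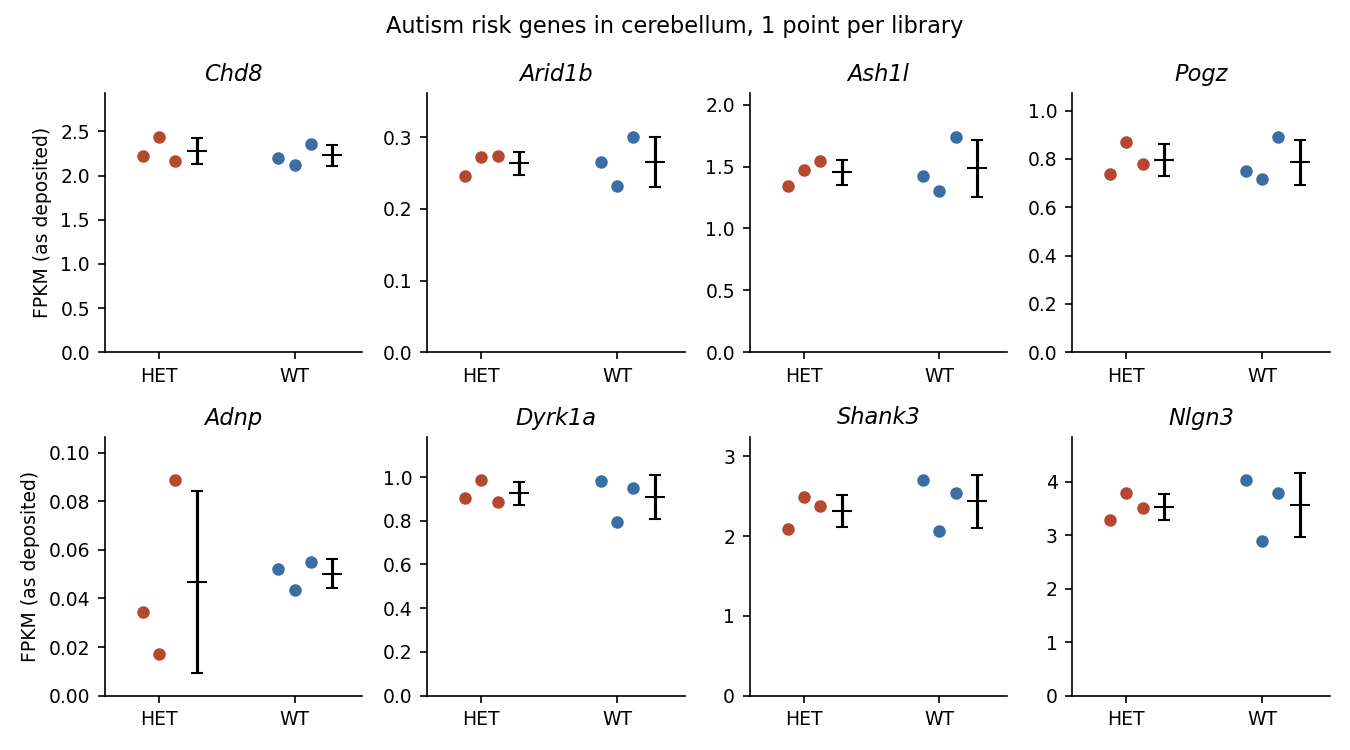
FPKM as deposited of each of the 8 autism risk genes (vertical axes starting at 0, own scale per gene) in the 3 HET libraries (left, red) and the 3 WT libraries (right, blue); black marks are the mean and its SD (n = 3). The groups overlap for every gene, for example at 2.09 to 2.48 FPKM in HET and 2.07 to 2.70 FPKM in WT for Shank3.

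The deposited values of these genes tracked one another from library to library. WT replicate 2 was the lowest of the 6 libraries for each of 8 rows, the 7 well covered members and Gm20716, while WT replicate 3 was the highest for 4 of them and WT replicate 1 and HET replicate 2 for 2 each. In WT replicate 2 only an estimated 67.4% of the reads fell in listed genes with 1 annotated position. The share was 79.3%, 90.0% and 79.7% in HET libraries and 86.9% and 80.5% in the other WT libraries. These shares rest on annotated spans and on the estimated depths. A median-of-ratios size factor, added after seeing the data, was 0.835 for WT replicate 2. The factors were 0.992, 1.13 and 0.988 in HET replicates 1 to 3, and 1.09 and 0.995 in WT replicates 1 and 3. As deposited, 75.4% of 13122 genes that averaged 1 RPM or more were higher in HET, with a median difference of 0.09 on log2(RPM + 0.5). After division by these factors 49.5% of 13114 genes were higher in HET and the median was -0.0017.

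On this scaled RPM scale all 8 genes lay lower in HET, where 50.5% of all genes did, and none passed the test. The differences in mean log2(RPM + 0.5), HET minus WT, had a median of -0.10, and limma adjusted p lay between 0.856 and 0.907. Leaving out 1 library moved that median to -0.05 (without WT replicate 3) and to -0.18 (without WT replicate 1), and without HET replicate 2 or WT replicate 2 it was 7 of the 8 that lay lower. limma called 0 of 13114 genes (0.0%) at an adjusted p under 0.05 and 597 (4.55%) at an unadjusted p under 0.05; without the scaling it called 0 of 13122 (0.0%) and 239 (1.82%) unadjusted. As deposited, in RPM, 5 of the 8 were below 0, where 24.6% of all genes were, and their median was -0.01, against 0.09 for all genes.

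Shank3 was the member with the smallest p and the only one whose groups separated after scaling. It had 128.0, 133.1 and 145.5 scaled RPM in HET libraries, against 150.9, 150.1 and 154.7 in WT libraries. Every HET library was below every WT library, as was the case for 4.73% of all genes. The difference was -0.17 (SE 0.07, 95% interval -0.32 to -0.01, limma unadjusted p = 0.0369, adjusted p = 0.856), or a fold of 0.891, and the exact permutation test gave p = 0.1, the smallest possible. It lay between -0.22 and -0.13 when each library was left out in turn, and in 5 of these 6 fits the 95% interval included 0 (limma unadjusted p from 0.0624 to 0.132). FPKM rescaled by the same method gave a limma unadjusted p of 0.0529. As deposited the groups overlapped through WT replicate 2 alone, and after quantile normalization they overlapped as well. Nlgn3, the other synaptic member, had 88.8, 89.8 and 95.3 scaled RPM in HET libraries, against 99.6, 92.9 and 102.1 in WT libraries. Its difference was -0.10 (SE 0.07, 95% interval -0.26 to 0.05, limma adjusted p = 0.856), with 2 HET libraries below every WT library.

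Dyrk1a had 114.3, 109.4 and 112.5 scaled RPM in HET libraries, against 113.5, 119.6 and 119.6 in WT libraries. HET replicate 1 lay above WT replicate 1 and the groups otherwise separated, at a difference of -0.07 (SE 0.06, 95% interval -0.21 to 0.07, limma adjusted p = 0.872). The interval covers folds, HET over WT, from 0.867 to 1.05.

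The chromatin regulators had wider WT spreads. Chd8 had 133.7, 128.7 and 130.6 scaled RPM in HET libraries, against 121.0, 151.6 and 141.3 in WT libraries, with all HET values between WT replicate 1 and the other WT libraries. Its difference was -0.07 (SE 0.09, 95% interval -0.26 to 0.13), and without WT replicate 2 it was 0.0023. Ash1l had 174.2, 167.7 and 201.0 scaled RPM in HET libraries, against 168.5, 200.1 and 225.3 in WT libraries. The span of its WT values was wider than the distance between the group means, and the difference of -0.12 (SE 0.11, 95% interval -0.38 to 0.13) was -0.03 without WT replicate 3 and -0.23 without WT replicate 1. Arid1b had 87.5, 84.9 and 98.2 scaled RPM in HET libraries, against 86.5, 97.9 and 106.9 in WT libraries, a difference of -0.10 (SE 0.09, 95% interval -0.31 to 0.11). Pogz had 33.3, 34.4 and 35.4 scaled RPM in HET libraries, against 30.9, 38.4 and 40.1 in WT libraries, a difference of -0.08 (SE 0.10, 95% interval -0.31 to 0.16). In each of these 4 genes WT replicate 1 was near or below the HET values and 1 or both of the other WT libraries were above them. Gm20716 had 69.1, 67.8 and 77.5 scaled RPM in HET libraries, against 67.1, 75.8 and 87.6 in WT libraries, with WT replicate 1 the lowest and WT replicate 3 the highest. Its difference was -0.10 (SE 0.10), while the row of Adnp gave -0.28 with an interval of -1.12 to 0.57, and 0.11 without HET replicate 2.

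**Figure D3:**
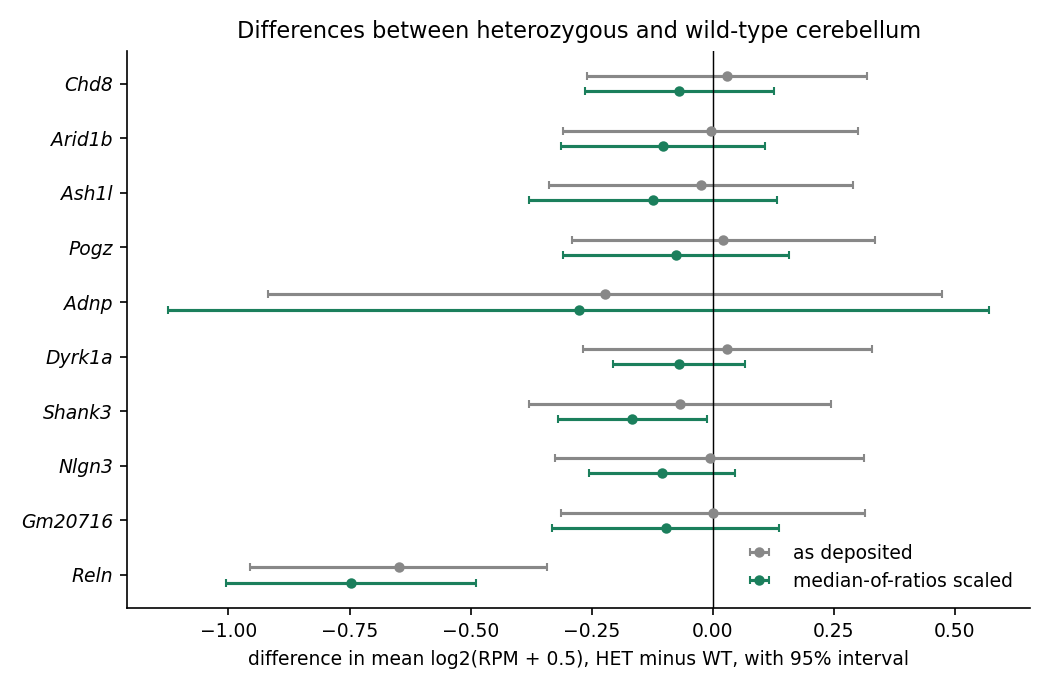
Difference in mean log2(RPM + 0.5), HET minus WT (horizontal axis), with its 95% limma interval, for the 8 autism risk genes, Gm20716 and Reln (rows), as deposited (grey) and after median-of-ratios scaling (green). The scaled differences of the members run from -0.28 to -0.07 and their intervals include 0 except that of Shank3, against -0.75 for Reln.

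For scale, Reln differed by -0.75 (SE 0.11, 95% interval -1.01 to -0.49) in the same scaled fit, the second smallest p of 13114 genes, and still had an adjusted p of 0.769. An effect of that size on any of the 7 well covered members lies outside their intervals, whose lowest bound was -0.38 for Ash1l. In these whole-tissue libraries fewer cells that express a gene and less RNA per cell cannot be told apart.

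**Figure D4:**
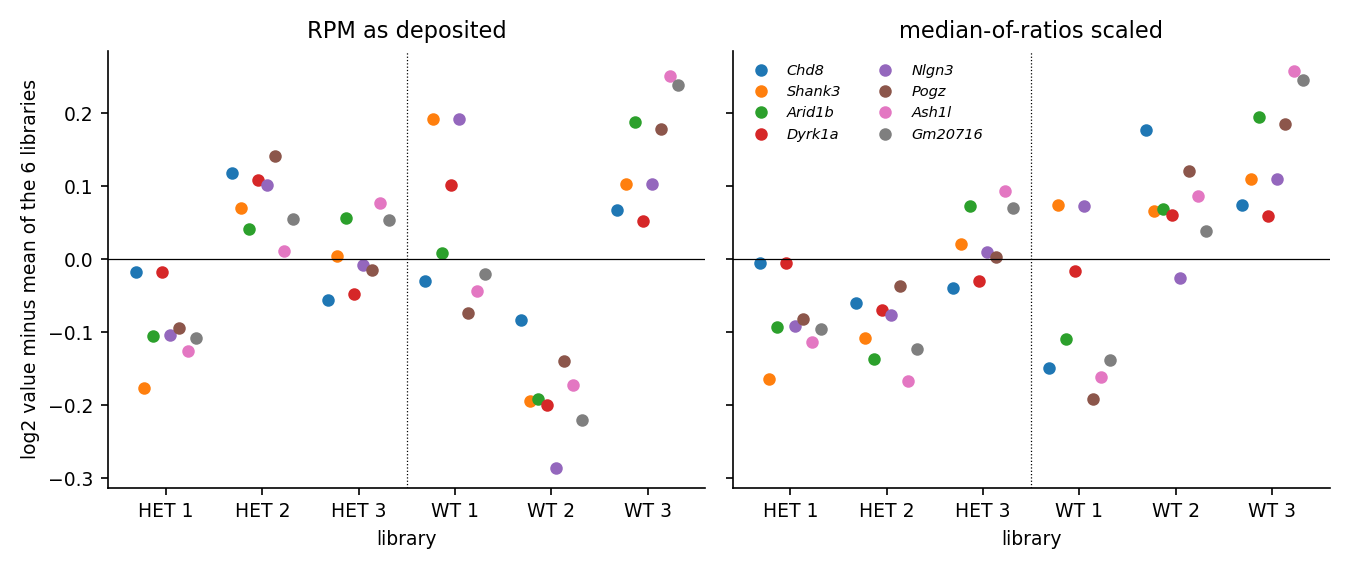
Log2 of each gene's RPM minus its mean over the 6 libraries (vertical axis) in the HET libraries (left of the dotted line) and WT libraries (right), as deposited (left panel) and after median-of-ratios scaling (right panel); 1 point is 1 of the 7 well covered members or Gm20716. As deposited, WT replicate 2 holds the lowest value of all 8 rows; after scaling, WT replicate 3 holds the highest value of 6.

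Other autism risk genes lay on the same side. The list named 45 further genes of chromatin and transcription and 39 of the synapse and of excitability, of which 43 and 39 reached a mean of 1 scaled RPM. Of the 43 chromatin genes 41 were lower in HET and 2 higher, with a median of -0.12 and a range of -0.33 to 0.02, against a median of -0.0017 over all genes tested; none passed the test (0.0%), and 3 of the 43 had every HET library below every WT library, as did 4.73% of all genes. The median of these genes was -0.08 without WT replicate 3, with 38 lower, and -0.19 without HET replicate 3, with 42 lower. Kdm6b, a histone demethylase, was the lowest at -0.33, with a mean of 10.5 ± 1.59 scaled RPM in HET and 13.5 ± 3.48 in WT (SD, n = 3 each). Kmt2a, a histone H3 lysine 4 methyltransferase, followed at -0.31, and the highest were Tlk2, a chromatin-linked kinase, at 0.02 and Foxp2, a transcription factor of Purkinje cells, at 0.01. Ddx3x, an RNA helicase and the list's highest by FPKM, differed by -0.23 with 186.4 ± 17.2 scaled RPM in HET and 218.9 ± 28.7 in WT (SD, n = 3 each). Smarcc2, a BAF subunit and the next by FPKM, differed by -0.07. Tbr1, a forebrain transcription factor, had at most 15 reads in any library and was not tested.

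Of the 39 synapse and excitability genes 34 were lower in HET and 5 higher, with a median of -0.07; none passed the test (0.0%) and none had every HET library below every WT library. Without WT replicate 3 the median was -0.03 with 27 of 39 lower, and it was -0.14 without HET replicate 3 or without WT replicate 1. Grin2a, an NMDA receptor subunit, was the lowest at -0.33, with 39.6 ± 8.08 scaled RPM in HET and 49.8 ± 8.39 in WT (SD, n = 3 each). Cacna1c, an L-type calcium channel subunit, stood at -0.23. The highest was Cntn4, an adhesion protein of axons, at 0.08, with 58.5 ± 4.36 scaled RPM in HET and 55.1 ± 1.51 in WT (SD, n = 3 each). Nlgn2, among the highest of the list by FPKM, differed by -0.14. As deposited, in RPM, 28 of the 43 chromatin genes and 16 of the 39 synapse genes were lower in HET, with medians of -0.02 and 0.02 against 0.09 for all genes, so the direction of the synapse list turns with the scaling while its place below all genes does not.

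**Figure D5:**
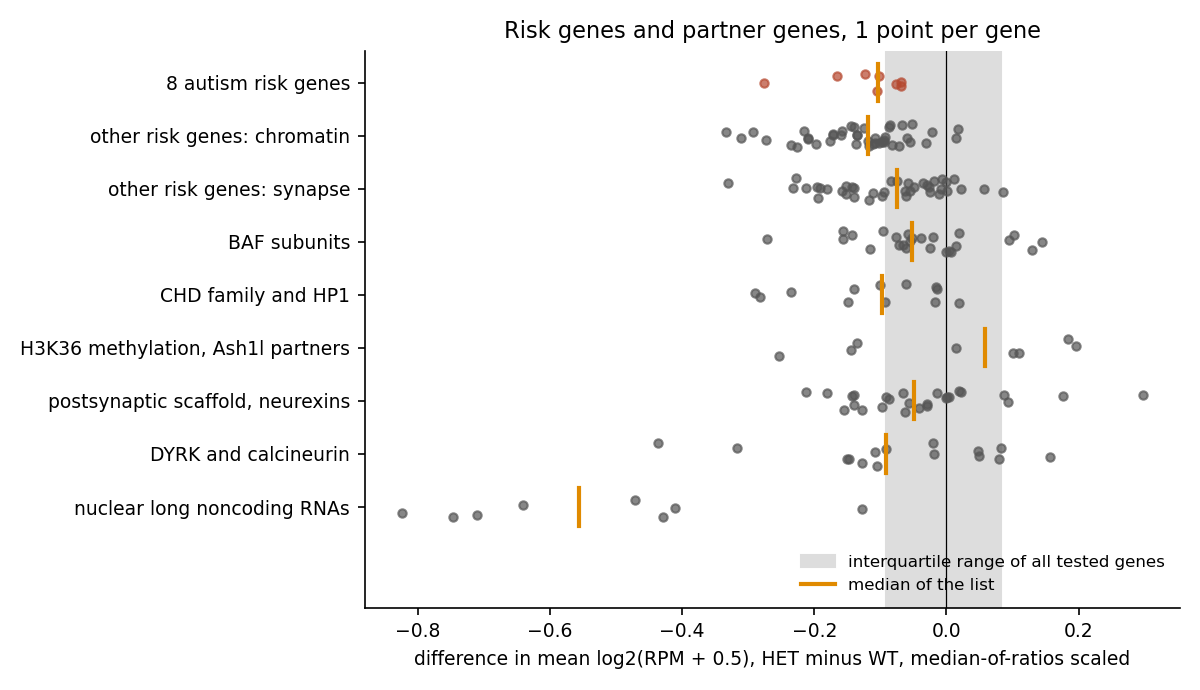
Difference in mean log2(RPM + 0.5), HET minus WT, after median-of-ratios scaling (horizontal axis), 1 point per gene for the 8 autism risk genes (red) and 8 further gene lists (grey, rows); orange bars are list medians and the grey band is the interquartile range of all tested genes. The medians of both further autism lists, -0.12 and -0.07, lie below 0, and that of the nuclear long noncoding RNAs is -0.56.

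Genes that work with the members gave a mixed picture, and none of them passed the test. Of 25 BAF complex subunits, the partners of Arid1b, 17 were lower in HET and 8 higher, with a median of -0.05 (-0.01 without HET replicate 2). The lowest were Arid1a at -0.27 and Dpf3, a histone-reading subunit, at -0.16, and the highest Dpf1 at 0.15 and Actl6a, an actin-related subunit, at 0.13; Smarcc2 and Smarcd2, the highest by FPKM, stood at -0.07 and -0.12. Of 12 CHD remodellers and HP1-related partners of Adnp and Pogz, 11 were lower and 1 higher, with a median of -0.10 (-0.05 without HET replicate 1). Chd7 stood at -0.29 and Chd1 at -0.28, and Chd1 was lower in every HET library than in any WT library, as were 4.73% of all genes (38.5 ± 4.20 scaled RPM in HET and 46.8 ± 3.19 in WT; SD, n = 3 each). Chd4, a NuRD remodeller that binds Adnp, stood at -0.15, Chd5 at -0.01 and Cbx3, an HP1 protein, at 0.02.

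The 8 genes around Ash1l and lysine 36 methylation lay on both sides of 0. Nsd3, Nsd1 and Setd2, which methylate lysine 36 like Ash1l, stood at -0.25, -0.14 and -0.13, while Nsd2 stood at 0.01. In Nsd3 every HET library was below every WT library, as in 4.73% of all genes. Rbbp4 and Morf4l1, partners of Ash1l in its complex as known from fly, stood at 0.20 and 0.18, and for both every HET library was above every WT library, as it was for 5.35% of all genes. Morf4l1 had 151.1 ± 12.5 scaled RPM in HET and 132.6 ± 3.01 in WT (SD, n = 3 each), and its limma adjusted p was 0.856. Morf4l2, a relative of Morf4l1 and the list's highest by FPKM, stood at 0.10, and the list's median was 0.06 with 5 genes higher and 3 lower (0.01 without WT replicate 1, with 4 lower).

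Of 26 postsynaptic scaffold and neurexin genes around Shank3 and Nlgn3, 18 were lower and 8 higher, with a median of -0.05 (-0.01 without WT replicate 3). Nrxn3, a partner of neuroligins, was among the lowest at -0.18. Grm5, a metabotropic glutamate receptor linked to Shank3 through Homer proteins, was the highest at 0.30 with 18.2 ± 2.23 scaled RPM in HET and 14.9 ± 3.16 in WT (SD, n = 3 each), followed by Dlgap2 at 0.18, with at most 44 reads in a library. Homer3, the Homer protein that Purkinje cells make in quantity and the highest of the list by FPKM, stood at 0.09. Of 15 tested DYRK and calcineurin genes 10 were lower and 5 higher, with a median of -0.09 (-0.04 without WT replicate 1). Nfatc4, a transcription factor whose nuclear entry Dyrk1a opposes, stood at -0.44 with at most 53 reads in a library, and Dyrk1b at -0.32. In both every HET library was below every WT library, as in 4.73% of all genes. Dyrk3 stood at 0.16, Rcan3, a calcineurin regulator, at 0.08, Dcaf7, a binding partner of Dyrk1a, at -0.02 and Ppp3r1, the calcineurin regulatory subunit, at 0.05.

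Several measures leaned to one side by group in their medians or in most of their genes, and their part in the differences above was not tested. The summed level of every list named here overlapped between the groups. 8 of 8 nuclear long noncoding RNAs were lower in HET, with a median of -0.56; Malat1 alone averaged 2485 ± 462 scaled RPM in HET and 4311 ± 1472 in WT (SD, n = 3 each), and Meg3 differed by -0.82, Mirg by -0.41 and Rian by -0.13. Their summed level was 3867, 2941 and 2755 in HET libraries, against 3497, 6970 and 5444 in WT libraries, so WT replicate 1 lay within the HET range, and without WT replicate 2 the median was -0.28. Choroid plexus markers were lower in HET in 6 of 6 genes, with a median of -1.09 (-0.24 without WT replicate 1 and -2.81 without WT replicate 2). Their summed levels, given above, overlapped between the groups. The difference also varied with gene span: its median was 0.04 in genes up to 10 kb and 0.01 up to 30 kb, then -0.02 up to 100 kb, -0.05 up to 300 kb and -0.05 above that. Of the genes spanning 100 to 300 kb, the class of Dyrk1a and Ash1l, 66.2% were lower in HET, and above 300 kb, the class of Arid1b, 66.1%. The share was 57.3% from 30 to 100 kb, the class of Chd8, Shank3 and Pogz. From 10 to 30 kb, the class of Nlgn3 and Adnp, it was 45.2%. Oligodendrocyte markers were higher in HET in 7 of 7 genes and microglia markers in 7 of 8, with summed levels of 4110 to 4700 and 196.0 to 294.8 scaled RPM in HET, against 3690 to 4508 and 184.8 to 250.1 in WT. Granule cell markers were lower in HET in 8 of 11 genes, with a median of -0.05 (0.07 without HET replicate 2). Purkinje cell markers were higher in HET in 7 of 10, with a median of 0.05. Granule cell markers summed to 4548 to 5648 in HET and 4958 to 5713 in WT, and Purkinje cell markers to 7323 to 8369 in HET and 7194 to 8157 in WT.

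The genes whose library-to-library pattern was most like each member were found by the root mean square difference of log2(FPKM + 1), each gene centred on its own mean, over the 6 libraries and 6358 genes. Chd8 was nearest to Npepps, an aminopeptidase, at 0.01, and then to Zfp606. Arid1b was nearest to Ahctf1, a nuclear pore protein, and Cnnm1; Ash1l to Fat1, an atypical cadherin, and Phc3, a Polycomb protein; Pogz to Dennd4b and Dnmt3a, a DNA methyltransferase. Dyrk1a was nearest to Zmym2 and Mapk8, a stress-activated kinase. Shank3 was nearest to Usp8, a deubiquitinase, and Ttbk1, a tau kinase, and Nlgn3 to Topors and Ythdc1, a nuclear reader of methylated RNA. The low-count row of Adnp was nearest to Cnksr2 and Rps6kb1. All 16 distances were at most 0.027 and describe these 6 libraries only; genes of low FPKM vary little on this scale, which favours small distances.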

How the data were processed

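FPKM values for 24537 genes in 3 HET and 3 WT libraries of mouse cerebellum were used as deposited. Per the labels' protocols, total RNA was sequenced as stranded single-end libraries, mitochondrial and ribosomal sequences were removed, reads were aligned to mm10 with TopHat2 and Bowtie, and the authors' FPKM came from Cufflinks; the authors' own test used Cuffdiff 2.1.1 and was not used here. For the counting, neither strand setting nor annotation is given in the sources used here. In HET replicate 2, 40 values could not be read as numbers, none of them of a gene whose values are given, and those genes were left out.

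Groups came from the titles. The planned test was limma 3.58.1 (R 4.3.3) with an intensity trend on log2(FPKM + 1) over genes averaging 1 FPKM or more, Benjamini-Hochberg adjusted, with a threshold of 0.05; a fold change on this scale is understated for low genes. After seeing that values were divided by genomic span, FPKM was multiplied by the span (GENCODE M21; 97.1% of genes matched 1 position) to give RPM, tested on log2(RPM + 0.5) for genes with a mean of at least 1, without and with median-of-ratios scaling. Read numbers are that value times a depth taken from the low-value steps, so they are approximate, and counting errors, 1.25% to 3.54% a library for members other than Adnp, cover counting only. The exact permutation tests of single genes were two-sided, with a lowest possible p of 0.1. The fits were also run on simulated data with independent noise and no shifts between libraries. The changes planted there were larger than the members' differences, so that run does not bear on them. The members and gene lists were chosen with earlier results of these data known. The text names the members, their 2 nearest genes by pattern, from each functional list the 2 highest and 2 lowest differences (taken from the scaled fit) and the 2 highest by FPKM, and paralogs; a few genes that this rule names are not reported here. Alternatives were other scalings, pseudocounts, filters, a replicate block and leaving out libraries. Sequences and motifs were handled in Python 3.11.15 with pandas 2.3.3, numpy 2.4.6 and scipy 1.17.1; figures were drawn with matplotlib 3.10.9.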

Additional observations from a re-analysis of the deposited data

How the results depend on the processing

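No member passed the test under any alternative, but the small differences often changed sign. Rescaling FPKM by median-of-ratios gave -0.049 for Chd8, -0.033 for Dyrk1a and -0.036 for Pogz, where the deposited values gave 0.021, 0.013 and 0.009; quantile normalization gave -0.054, -0.021 and -0.024, leaving out replicate 2 of both groups -0.039, -0.053 and -0.048, and scaled RPM -0.069, -0.069 and -0.076. Without replicate 2 of both groups the Adnp row gave 0.010, and the Gm20716 row gave 0.00079 in unscaled RPM. Leaving out 1 library at a time gave, on log2(FPKM + 1) and on scaled RPM, -0.015 to 0.050 and -0.16 to 0.0023 for Chd8, -0.13 to 0.0074 and -0.22 to -0.13 for Shank3, -0.034 to 0.015 and -0.73 to 0.11 for Adnp, -0.022 to 0.018 and -0.18 to -0.032 for Arid1b, -0.030 to 0.041 and -0.094 to -0.052 for Dyrk1a, -0.12 to 0.066 and -0.14 to -0.077 for Nlgn3, -0.020 to 0.051 and -0.19 to -0.0041 for Pogz, and -0.072 to 0.056 and -0.23 to -0.026 for Ash1l.

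The number of genes called over the whole table was 5 as planned, 0 under median-of-ratios scaling of FPKM, quantile normalization, a filter of 0.5 FPKM, no intensity trend, and RPM with or without scaling, 1 with no filter, 67 without replicate 2 of both groups, and 5 to 62 without 1 library (0 in every such fit of scaled RPM). With the replicate number as a block it was 13. Libraries that share a number had correlations of -0.28, -0.52 and 0.14 in their deviations from the group means, so the numbers were not taken as pairs, and no library correlated best with its own number. Each number holds 1 HET and 1 WT library, so the block could not change the members' differences, only their errors and p-values. The cause of the shifts in the number of genes called was not tested.

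With 3 libraries a group, the intervals of the 7 well covered members reach 0.14 to 0.26 on the log2 scale either side of the estimate in the scaled fit, so a difference smaller than that could not be told from 0. The Adnp row had the fewest reads of any member, and how reads were divided between it and Gm20716 is not known. Read numbers rest on annotated spans. Groups of 3 are too small for a test for a library that stands apart in a single gene.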
